A study of Mus musculus with 3 samples.

Results

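Type 1 conventional dendritic cells (cDC1) were taken from single-cell RNA data of immune cells from mouse B16F10 melanomas. They were chosen by their own RNA: a cell barcode was a member when it held at least 1500 unique molecular identifiers (UMIs, each a count of 1 captured RNA molecule), under 10% mitochondrial UMIs, at least 2 UMIs of Xcr1 and Clec9a together, fewer than 2 UMIs of Cd209a, fewer than 2 of Fscn1 and none of Cd3e. Of 8139 barcodes that passed the depth and mitochondrial limits, 144 were members: 75 of 2719 in the day 3 library, 33 of 2577 in the day 7 library and 36 of 2843 in the day 14 library. They were set beside type 2 conventional dendritic cells (cDC2), barcodes with at least 2 UMIs of Cd209a, at least 1 of Flt3 and none of Xcr1, which numbered 21, 27 and 28 in the same order of days.

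The tumours grew under the skin of C57BL/6 mice after inoculation of B16F10, a melanoma line of that strain that carries the gp100 antigen. On day 9 after inoculation, all mice received cytotoxic T lymphocytes that recognise gp100, activated in culture from Pmel-1 T cell receptor transgenic mice, into a vein. Tumours were taken 3, 7 and 14 days after the transfer, digested with collagenase and DNase at 37 °C, and enriched for CD45+ cells, with a cell sorter named in one label and magnetic beads in another. Each day is 1 library pooled from equal numbers of CD45+ cells of 3 mice, so differences between days have no replicate check and carry no p-value, and no library of tumours without transfer was analysed here. The day of a library, its mice and its preparation cannot be told apart.

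cDC1 take up dead cells and viral material and load fragments of them onto MHC class I for CD8+ T cells, a route called cross-presentation. XCR1, the receptor for a chemokine made by activated CD8+ T cells and natural killer cells, and CLEC9A (DNGR-1), which binds actin exposed by dead cells, mark them in mice. Their development rests on the transcription factors IRF8, BATF3 and ID2. In tumours they are known as a source of CXCL9 and interleukin 12, and they move to lymph nodes after maturation with expression of Ccr7 and Fscn1. cDC2, which rest on IRF4, mainly present antigen on MHC class II to CD4+ T cells.

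The proximal promoters of the gate genes and of interferon-induced genes that the results by day turn on are shown first, since motifs known from other work lie in them. Sequences are the 250 bases before the transcription start, 5′ to 3′ on the gene's strand, from RefSeq annotation of GRCm38.p6. In Xcr1 (chr9:123862030-123862279, minus strand) and Clec9a (chr6:129408612-129408861, plus strand), capitals mark a match on either strand to a composite element (TTTC and TGA with any 4 bases between) at which BATF and IRF proteins are known to bind together. In Gbp2 (chr3:142620413-142620662, plus strand), Igtp (chr11:58199306-58199555, plus strand) and Irf1 (chr11:53769764-53770013, plus strand), capitals mark an interferon-stimulated response element (GAAA and GAAA with any 2 bases between) or a gamma-activated site (TTCNNNGAA).
Xcr1: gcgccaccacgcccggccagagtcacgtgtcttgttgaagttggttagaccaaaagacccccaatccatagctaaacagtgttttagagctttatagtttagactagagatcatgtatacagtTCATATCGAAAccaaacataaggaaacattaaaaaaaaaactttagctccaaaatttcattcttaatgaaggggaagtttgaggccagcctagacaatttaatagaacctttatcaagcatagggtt
Clec9a: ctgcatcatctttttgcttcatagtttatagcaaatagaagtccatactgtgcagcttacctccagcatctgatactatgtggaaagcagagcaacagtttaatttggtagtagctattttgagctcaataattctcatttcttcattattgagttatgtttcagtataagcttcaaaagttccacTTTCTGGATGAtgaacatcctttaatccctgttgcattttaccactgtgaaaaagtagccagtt
Gbp2: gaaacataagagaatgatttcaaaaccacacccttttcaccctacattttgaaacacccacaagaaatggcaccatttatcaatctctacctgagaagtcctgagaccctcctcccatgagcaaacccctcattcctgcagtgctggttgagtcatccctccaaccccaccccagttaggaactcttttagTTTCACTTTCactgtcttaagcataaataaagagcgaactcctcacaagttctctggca
Igtp: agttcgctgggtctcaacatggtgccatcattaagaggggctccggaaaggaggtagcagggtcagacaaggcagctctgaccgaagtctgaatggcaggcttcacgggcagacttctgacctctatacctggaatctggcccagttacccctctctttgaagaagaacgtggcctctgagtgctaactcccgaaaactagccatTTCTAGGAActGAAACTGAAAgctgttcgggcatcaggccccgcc
Irf1: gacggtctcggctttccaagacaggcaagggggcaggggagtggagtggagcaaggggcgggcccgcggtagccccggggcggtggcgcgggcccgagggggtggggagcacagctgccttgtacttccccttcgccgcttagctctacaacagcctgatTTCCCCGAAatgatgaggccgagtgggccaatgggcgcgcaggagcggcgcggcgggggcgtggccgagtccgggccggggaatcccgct

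The composite element was found in 3 of the 9 genes of the 12-gene cDC1 identity list with a promoter in the table (Xcr1, Clec9a and Gcsam), and in 3.82% of all 32851 promoters. The interferon-stimulated element or the gamma-activated site was found in 10 of the 12 matched genes of the 18-gene interferon-gamma list, with 9 holding the first and 6 the second, against 2.98% and 7.02% of all promoters. Igtp, an interferon-induced GTPase, held both, and Cxcl9 held neither in this window. A match describes these letters and is no evidence of binding.

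The members were deeply covered, with medians of 16140, 25941 and 20646 UMIs per cell on days 3, 7 and 14, and summed to 1462712, 843354 and 729091 UMIs. Levels are given below as CPM, the UMIs of a gene scaled to 1000000 UMIs of the same set of cells. All intervals are 95% and cover counting error only. Transcripts were captured at the 3′ end, so levels are compared between cells and not between genes.

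The label was checked with 10 further cDC1 markers that the gate did not use, and it held for the members that carried an Xcr1 UMI better than for those that did not. Xcr1 was detected in 39, 30 and 24 members on days 3, 7 and 14, while 36, 3 and 12 members entered on Clec9a alone, which is 48% (36.3 to 59.8), 9.09% (1.92 to 24.3) and 33.3% (18.6 to 51.0) of the members (exact Clopper-Pearson intervals). The Xcr1 level of the first set was 456, 510.2 and 554 CPM. At that mean level, a cell of the second set's median depth would hold 5.98, 11.0 and 8.82 Xcr1 UMIs. The sets were split on Xcr1 itself, so its absence from the second set is no result. Single cells also varied, and 1 Xcr1-positive member of day 7 held 1 Xcr1 UMI among 26928 UMIs. Summed over the 10 markers, the median cell held 6282, 6691 and 7146 CPM in the Xcr1-positive members, 3210, 883 and 1819 CPM in the Xcr1-zero members and 676, 716 and 640 CPM in cDC2. The Xcr1-zero members thus lay between the other sets on this measure, which is not specific to cDC1. Over whole sets, it was 4999, 4521 and 4410 CPM in barcodes gated as plasmacytoid dendritic cells, of which Irf8 alone gave 4874, 4414 and 4246. In monocytes and macrophages it was 1633, 910 and 782 CPM. In the Xcr1-zero members it was 3386, 1865 and 2570 CPM, with Irf8 at 2100 CPM on day 3 and 1547 CPM on day 14.

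Wdfy4, a gene needed for cross-presentation in mouse cDC1, told the sets apart in the same way. It stood at 609, 749 and 661 CPM in the Xcr1-positive members and 83, 358 and 147 CPM in the Xcr1-zero members, beside 73.4, 93.8 and 76.8 CPM in cDC2. At day 3 the Xcr1-zero members were close to the cDC2 level. A Wdfy4 UMI was found in 4.76%, 1.54% and 4.18% of T cell barcodes, which should lack it. For Tlr3 this share was 0.381%, 0.14% and 0.597%. Of the 5 markers Tlr3, Itgae, Cadm1, Snx22 and Gcsam, none was detected in 30 of 36, 1 of 3 and 6 of 12 Xcr1-zero members, whereas none was detected in 5 of 39, 0 of 30 and 1 of 24 Xcr1-positive members.

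Markers of other myeloid cells moved with this split. The 9 monocyte and macrophage markers, all detected in both sets except C1qa, C1qb, C1qc and Apoe at 0 in the 3 Xcr1-zero members of day 7, summed to 7292, 2619 and 3148 CPM in the Xcr1-zero members and 2796, 832 and 564 CPM in the Xcr1-positive members on days 3, 7 and 14, beside 3329, 1429 and 2035 CPM in cDC2. Plasmacytoid dendritic cell markers summed to 2021, 432 and 2213 CPM in the Xcr1-zero and 429.7, 348 and 177 CPM in the Xcr1-positive members, with Siglech, their surface lectin, at 144, 0 and 284 against 5.23, 0 and 1.91 CPM. Markers of migratory dendritic cells summed to 381, 346 and 539 CPM in the Xcr1-zero and 25.1, 11.8 and 21 CPM in the Xcr1-positive members, and Ccr7 was at 227, 49.4 and 392 against 1.05, 0 and 0 CPM. For that reason results by day are given for all members and for the Xcr1-positive members. At day 3, 10 of the 39 Xcr1-positive members also held at least 2000 CPM of the monocyte and macrophage markers, and the highest held 24100 CPM, so some values are given without such cells, in 29, 28 and 22 cells.

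**Figure D1:**
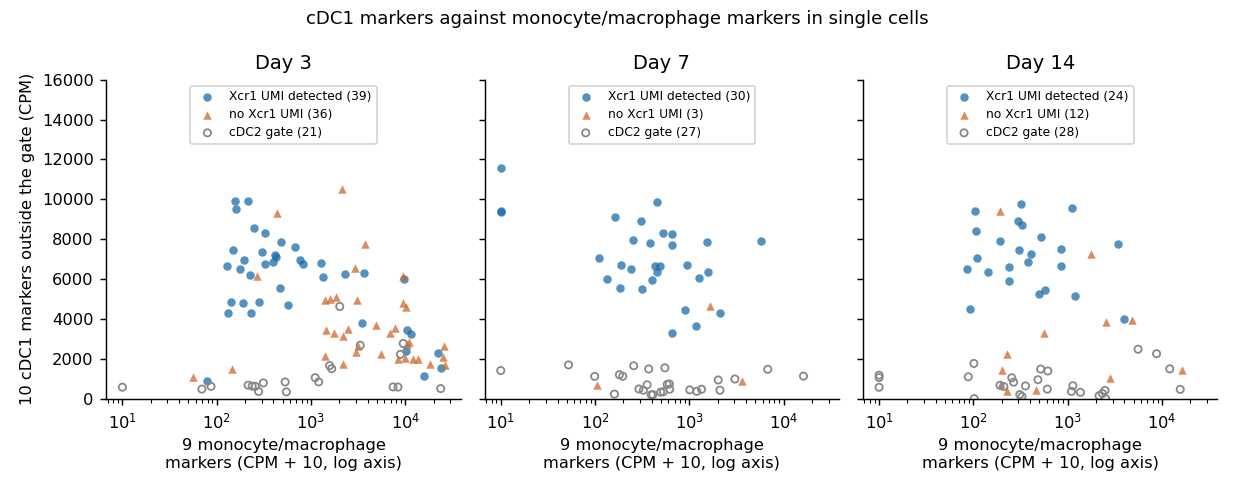
Each point is 1 cell, with the summed level of 10 cDC1 markers outside the gate (CPM, linear axis) against the summed level of 9 monocyte and macrophage markers (CPM + 10, log axis), for Xcr1-positive members (circles), Xcr1-zero members (triangles) and cDC2 (open circles) of each library. The Xcr1-positive cells have medians of 6282, 6691 and 7146 CPM on the vertical axis and the cDC2 medians of 676, 716 and 640 CPM, while most of the 36 Xcr1-zero cells of day 3 lie at the right and below the main group.

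The gate's own limit lies inside this spread. Just outside it, 89, 21 and 37 barcodes with exactly 1 UMI of Xcr1 and Clec9a held Wdfy4 at 42.9, 30.9 and 69.3 CPM on days 3, 7 and 14. Just inside, 26, 2 and 11 members with exactly 2 UMIs held 70.6, 135 and 117 CPM, and the 37, 29 and 24 members with 4 or more held 612, 758 and 637 CPM. The limits on the other gate genes removed a larger part of the barcodes on days 7 and 14 than on day 3. Of 81, 49 and 49 barcodes with 2 or more UMIs of the pair, 4, 12 and 2 had too much Cd209a, none had too much Fscn1, and 2, 4 and 11 had a Cd3e UMI.

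Among the members' barcodes, 10, 18 and 2 also occurred in another library with at least 500 UMIs. In all but 1 pair of day 3 and 1 of day 14, the partner held at most 2.44% of the member's own UMIs. Scrublet placed 1, 0 and 0 members among the most doublet-like barcodes at an assumed rate of 0.8% per 1000 barcodes, and no barcode was removed for it. A count of other-lineage markers picked out more members. Lymphocyte, neutrophil, plasmacytoid dendritic cell, melanoma and erythroid markers summed to 3 or more UMIs in 26 of 75, 9 of 33 and 12 of 36 members. In cDC2 they did so in 3 of 21, 5 of 27 and 8 of 28 barcodes.

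cDC1 made up a larger share of the day 3 library than of the later ones, but among Xcr1-positive members the differences of days 7 and 14 from day 3 were within counting error. All members were 2.76% (2.18 to 3.45), 1.28% (0.883 to 1.79) and 1.27% (0.888 to 1.75) of the barcodes on days 3, 7 and 14. The share at day 7 was 0.464 times that at day 3 (0.299 to 0.708), and at day 14 it was 0.459 times (0.300 to 0.692). Without barcodes that occur in more than 1 library, 65, 15 and 34 members were left, with day 7 at 0.248 times day 3 (0.132 to 0.441) and day 14 at 1.97 times day 7 (1.05 to 3.90). The Xcr1-positive members alone were 1.43%, 1.16% and 0.844%, with day 7 at 0.812 times day 3 (0.487 to 1.34) and day 14 at 0.589 times (0.339 to 1.004), intervals that hold 1. Without cells of 2000 CPM or more of monocyte and macrophage markers, the log2 ratio of the Xcr1-positive share at day 7 over day 3 was 0.027. After each barcode was thinned to 3000 UMIs before gating, 18 of 2470, 18 of 2375 and 20 of 2590 barcodes were members. The day 7 share was then 1.04 times that of day 3 (0.510 to 2.12), an interval that overlaps the one of all members. At 3000 UMIs the limit of 2 gate UMIs is also harder to reach, so thinning does not set depth apart from a stricter gate. Shares describe CD45+ cells as sorted and pooled, and do not give numbers of cells in a tumour.

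cDC2 held 0.772% (0.479 to 1.18), 1.05% (0.692 to 1.52) and 0.985% of the barcodes. There were thus 3.57 members (2.18 to 6.10) per cDC2 at day 3, 1.22 (0.713 to 2.11) at day 7 and 1.29 at day 14. With the Xcr1-positive members only, these ratios were 1.86, 1.11 and 0.857.

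**Figure D2:**
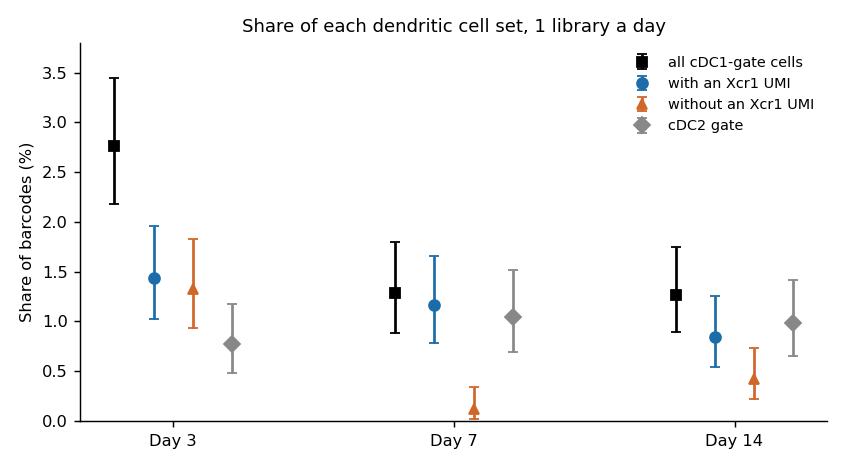
Share of barcodes (%) with at least 1500 UMIs and under 10% mitochondrial UMIs that fell in each set, by day after transfer, with exact 95% intervals for counting error and 1 library a day. All cDC1-gate cells are at 2.76% on day 3 and 1.28% on day 7, and the Xcr1-positive cells are at 1.43% and 1.16%.

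The first comparison asked which other genes set cDC1 apart from cDC2 in the same tumours. UMIs were summed per library and cell type and tested with edgeR's quasi-likelihood test, with the library as a block and Benjamini-Hochberg adjustment over 5908 genes. The 3 libraries served as the replicates, so the p-values measure how the contrast varied between libraries of different days, and the 6 gate genes were left out. At an adjusted p under 0.05, 294 genes were higher in cDC1 (4.98% of those tested) and 365 were lower (6.18%). The median log2 fold change over all genes tested was 0.01.

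Gate genes are given as a description. Xcr1 stood at 298, 461 and 399 CPM in cDC1 on days 3, 7 and 14 and was barred from cDC2 by the rule. Clec9a stood at 184, 206 and 219 CPM in cDC1 and 5.87, 22.3 and 8.31 CPM in cDC2.

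Transcription factors of the cDC1 lineage were higher in cDC1. Id2, an inhibitor of E proteins that cDC1 need, was at 738, 1251 and 1089 CPM in cDC1 and 64.6, 116 and 139 CPM in cDC2, with a log2 fold change (cDC1 over cDC2) of 3.32 (SE 0.16, adjusted p = 1.1e-05). Irf8, the factor that specifies the lineage, was at 2318, 2449 and 2587 CPM in cDC1 and 614, 176 and 305 CPM in cDC2, with log2 2.94 (SE 0.30, adjusted p = 0.00048). Batf3, which sustains Irf8 expression in this lineage, was at 116, 161 and 169 CPM in cDC1 and 41.1, 58 and 33.2 CPM in cDC2, with log2 1.80 (SE 0.25, adjusted p = 0.0021). In each of the 3, every cDC1 value lay above every cDC2 value. Bcl6 and Rbpj, a repressor and the mediator of Notch signals, were also higher, with log2 fold changes of 1.39 and 1.30.

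Of 20 dendritic cell transcription factors tested, 5 were higher in cDC1 and 5 lower, with a median of -0.03. The lower ones were Irf4, Klf4, Zeb2, Cebpa and Bcl11a. DESeq2 did not call Bcl6, Klf4 and Cebpa. Irf4 had 3, 0 and 0 UMIs in cDC1 and 13, 29 and 18 in cDC2, a level 47.8-fold lower in cDC1 (15.6 to 238, counting error). Zeb2, which is needed for monocytes and opposes the cDC1 fate in mice, was at 221, 53.4 and 82.3 CPM in cDC1 and 276, 194 and 341 CPM in cDC2, with log2 -1.33 (SE 0.30, adjusted p = 0.02). In the Xcr1-positive members it was at 114, 44.6 and 13.3 CPM. Klf4, which supports part of the cDC2 lineage, was at 85.5, 79.4 and 91.9 CPM in cDC1 and 147, 156 and 185 CPM in cDC2, with log2 -0.88 (SE 0.19, adjusted p = 0.014), a call lost in DESeq2 and without the day 7 or the day 14 library. Zbtb46, a factor shared by classical dendritic cells, had log2 0.81 (SE 0.38, adjusted p = 0.26) and did not pass.

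All 10 tested genes of the cDC1 identity list were higher in cDC1, with a median of 3.58. The list holds genes known for this lineage, so its direction is no independent evidence that the gate works. Cadm1, an adhesion molecule that marks cDC1 across species, had 188, 133 and 122 UMIs in cDC1 and 0, 0 and 2 in cDC2, a 92.7-fold higher level (25.5 to 768). Tlr3, the sensor of double-stranded RNA in endosomes, had 94, 119 and 83 UMIs in cDC1 and 0, 0 and 1 in cDC2, a 124-fold higher level (22.1 to 4909). Itgae, the CD103 chain of an integrin that binds E-cadherin, was at 93.7, 202 and 160.5 CPM in cDC1 and 0, 11.2 and 2.08 CPM in cDC2, with log2 5.10 (SE 0.43, adjusted p = 0.00016). None of the 3 was absent from any cDC1 library, whereas each was at 0 in at least 1 cDC2 library.

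The largest differences lay in genes that cDC2 did not hold at all. Dnase1l3, a secreted DNase that digests DNA of dead cells, had 93, 87 and 79 UMIs in cDC1 and 0 in all 3 cDC2 sums, at least 36.1-fold higher against a floor of 3 counts over the group. By the same measure Gcsam was at least 29.6-fold higher, Pianp at least 27.1-fold, Bcl2l14 at least 20.9-fold, Cxcr3 at least 20.2-fold and Gpr141b at least 19.0-fold. Cxcr3, the receptor for CXCL9 and CXCL10, was at 34.2, 71.1 and 48 CPM in cDC1. Plpp1, a phosphatase acting on lipid phosphates, and Fcrla, an intracellular Fc receptor-like protein, had 1 UMI each in cDC2 and were 56.1-fold (9.89 to 2231) and 48.5-fold (8.54 to 1934) higher in cDC1. Pianp was at 64.8, 108 and 95.3 CPM in the Xcr1-positive and at 0 in all Xcr1-zero members.

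cDC1 held less RNA of receptors and surface proteins typical of cDC2. Of 10 tested genes of the cDC2 identity list, 8 were lower in cDC1 by edgeR and 7 by DESeq2, none was higher by either or at an unadjusted p under 0.05, and the median was -1.92. Clec10a, a galactose-binding lectin, was at 54.7, 42.7 and 87.8 CPM in cDC1 and 276, 609 and 544 CPM in cDC2, with log2 -2.87 (SE 0.27, adjusted p = 0.00026). Its relative Mgl2 was at 52, 65.2 and 106 CPM in cDC1 and 308, 277 and 589.7 CPM in cDC2, with log2 -2.35 (SE 0.18, adjusted p = 8.7e-05). Cd209d, a paralog of the gate gene Cd209a whose reads may be shared with it, had log2 -4.86 (SE 0.54, adjusted p = 0.00064). Sirpa, an inhibitory receptor used to sort cDC2, was at 114, 30.8 and 50.7 CPM in cDC1 and 114, 141 and 162 CPM in cDC2 and did not pass, with log2 -1.19 (SE 0.36, adjusted p = 0.067). In the Xcr1-positive members Sirpa was at 81.5, 14.4 and 7.62 CPM.

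Among the 10 genes with the largest negative fold changes were Tnfrsf4 and Cd7, which T cells also express. Tnfrsf4 (OX40) was at 1.37, 3.56 and 1.37 CPM in cDC1 and 270.1, 29 and 68.5 CPM in cDC2, and Cd7 had a log2 fold change of -4.53. The cDC1 gate bars Cd3e and the cDC2 gate does not, and 9 markers of T and natural killer cells summed to 79.3, 67.6 and 107 CPM in cDC1 against 346, 225 and 924 CPM in cDC2. Their part in these differences was not tested. With the limits on Cd3e and Fscn1 laid on cDC2 as well, 290 genes were higher and 392 lower. Tmem176b and Tmem176a, paired channel proteins of myeloid cells, had log2 fold changes of -4.12 and -4.07. Areg, a growth factor, was at 19.8, 4.74 and 4.11 CPM in cDC1 and 294, 91.5 and 24.9 CPM in cDC2, with log2 -3.79 (SE 0.31, adjusted p = 0.00013).

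**Figure D3:**
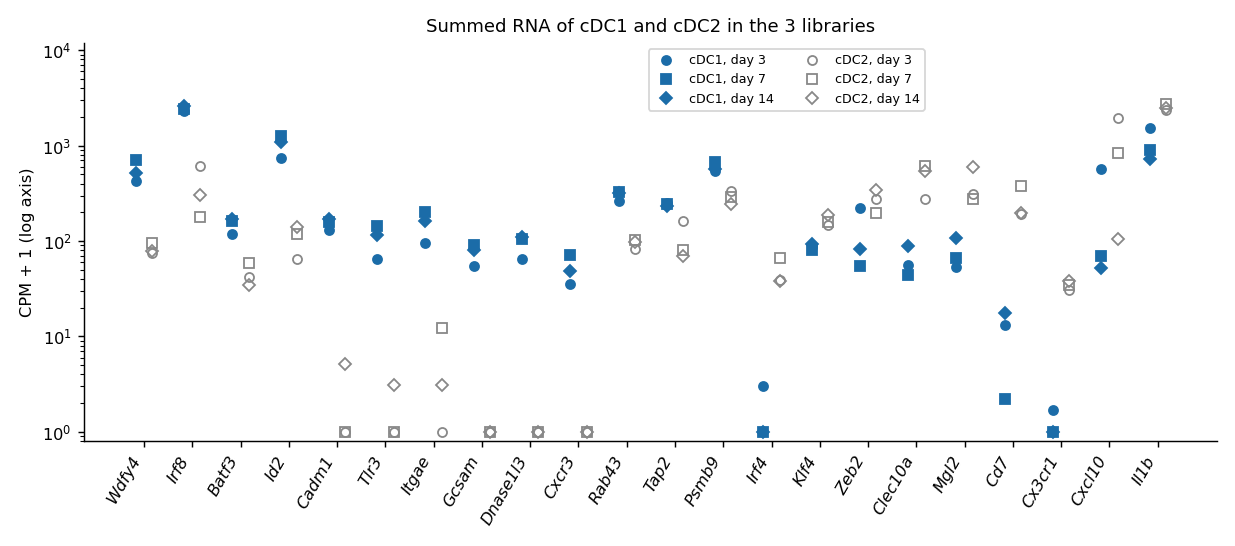
Summed level (CPM + 1, log axis) of 22 genes in cDC1 (filled) and cDC2 (open), 1 point per library, without error bars. For Gcsam, Dnase1l3 and Cxcr3 all 3 cDC2 points lie at 0 CPM, and for Id2, Irf8, Batf3 and Irf4 the cDC1 and cDC2 points do not overlap.

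Genes for making and loading MHC class I peptides were in part higher in cDC1. Of 20 genes of class I presentation and cross-presentation tested, 8 were higher in cDC1 by edgeR and none lower, with a median log2 fold change of 0.40 (1 was lower at an unadjusted p under 0.05, and none in DESeq2). Rab43, a small GTPase needed for cross-presentation in mouse cDC1, was at 263, 328 and 314 CPM in cDC1 and 82.2, 103 and 97.6 CPM in cDC2, with log2 1.72 (SE 0.17, adjusted p = 0.00037). Tap2, a subunit of the peptide transporter into the endoplasmic reticulum, was at 251, 244 and 233 CPM in cDC1 and 161, 80.4 and 68.5 CPM in cDC2, with log2 1.34 (SE 0.25, adjusted p = 0.0084). Psmb9, a subunit of the immunoproteasome that cuts the peptides, was at 539, 666 and 566 CPM in cDC1 and 335, 286 and 241 CPM in cDC2, with log2 1.08 (SE 0.17, adjusted p = 0.0032). Every cDC1 value of these 3 genes exceeded every cDC2 value. Psmb8, Psme1, Pdia3 (not in DESeq2) and Wdfy4 were higher too, and Tap1 had log2 0.60 (SE 0.14, adjusted p = 0.027), a call lost in DESeq2 and without any 1 of the libraries. The class I heavy chain itself did not pass: H2-K1 was at 1792, 1451 and 1867 CPM in cDC1 and 1826, 2041 and 1443 CPM in cDC2, with log2 -0.01 (SE 0.16, adjusted p = 0.98).

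Most MHC class II genes did not pass the test. Cd74, the invariant chain, was at 15285, 18527 and 17366 CPM in cDC1 and 18088, 17666 and 15753 CPM in cDC2, with log2 0.02 (SE 0.10, adjusted p = 0.93). Of 13 class II genes, 1 was higher in cDC1 and 3 were lower. The higher one was H2-Ob, part of H2-O, which restrains peptide loading, at 93, 116 and 160.5 CPM in cDC1 and 49.9, 49.1 and 51.9 CPM in cDC2, with log2 1.31 (SE 0.24, adjusted p = 0.0077). Ctss, a protease that trims the invariant chain, had log2 -0.81 (SE 0.13, adjusted p = 0.0046), Ifi30, a reductase that unfolds antigens in lysosomes, had log2 -0.999 (SE 0.14, adjusted p = 0.0021), and H2-DMb1, part of the loading catalyst, had log2 -0.45 (SE 0.12, adjusted p = 0.038), lost in DESeq2.

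Uptake receptors divided. Of 13 tested, 3 were higher in cDC1 (Ly75, Clec12a and Tlr3) and 3 lower (Mrc1, Fcgr1 and Fcer1g), with the calls of Ly75 and Fcgr1 lost in DESeq2. Ly75 (DEC-205), an endocytic lectin of cDC1, was at 28.7, 20.2 and 31.5 CPM in cDC1 and 2.94, 2.23 and 4.15 CPM in cDC2, with log2 3.07 (SE 0.51, adjusted p = 0.0046). Mrc1, the mannose receptor, was at 12.3, 2.37 and 2.74 CPM in cDC1 and 67.5, 42.4 and 74.7 CPM in cDC2, with log2 -3.25 (SE 0.42, adjusted p = 0.0014). Fcer1g, the signalling chain of Fc receptors, was at 1414, 489 and 669 CPM in cDC1 and 2478, 1828 and 1836 CPM in cDC2, with log2 -1.35 (SE 0.18, adjusted p = 0.0014). Of 8 innate sensors tested, Tlr3 and Tlr11 were higher and Tlr2 lower.

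Interleukin 1 and 3 of the chemokines were lower in cDC1. Il1b was at 1539.6, 895 and 716 CPM in cDC1 and 2366, 2742 and 2506 CPM in cDC2, with log2 -1.31 (SE 0.19, adjusted p = 0.0023), and Il1a had log2 -1.48 (SE 0.40, adjusted p = 0.045). These 2 were lower among 6 tested cytokines and none was higher (1 at an unadjusted p under 0.05, none in DESeq2). DESeq2 called Il1b lower but not Il1a. Of 11 chemokines, Cxcl10, Ccl3 and Ccl9 were lower and Cxcl16, a membrane-bound ligand of CXCR6, was higher. Cxcl10, a ligand of CXCR3, was at 567, 68.8 and 50.7 CPM in cDC1 and 1961, 844 and 104 CPM in cDC2, with log2 -2.18 (SE 0.38, adjusted p = 0.006). It was highest on day 3 in both cell types, and the call was lost without the replicate block. Cxcl9, the other CXCR3 ligand, was at 1700.3, 321 and 632 CPM in cDC1 and 675, 551 and 154 CPM in cDC2 and did not pass, with log2 0.89 (SE 0.42, adjusted p = 0.26). Cxcl16 had log2 1.05 (SE 0.24, adjusted p = 0.022), lost in DESeq2, without the day 3 library and among Xcr1-positive members.

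Interleukin 12 RNA was scarce. Il12b, its p40 subunit, had 3, 0 and 15 UMIs in cDC1 on days 3, 7 and 14 and none in cDC2, and Il12a had 1 UMI in all members. At these counts no difference from cDC2 was tested.

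Of 9 receptors tested, Cxcr3 and Ccr7 were higher in cDC1 and Cx3cr1 was lower. Cx3cr1, the fractalkine receptor of monocytes and some cDC2, had 1, 0 and 0 UMIs in cDC1 and 10, 15 and 18 in cDC2, a level 103-fold lower in cDC1 (17.5 to 4152). Ccr7 had log2 2.13 (SE 0.55, adjusted p = 0.038), a call lost in DESeq2, without the day 3 library and without the replicate block. The Xcr1-zero members held it at 227, 49.4 and 392 CPM and the Xcr1-positive members at 1.05, 0 and 0 CPM, beside 0, 4.47 and 39.5 CPM in cDC2. Of 12 genes of costimulation and checkpoint pathways, Havcr2 (TIM-3) was higher at 58.1, 86.6 and 70.0 CPM in cDC1 and 23.5, 20.1 and 31.1 CPM in cDC2, with log2 1.55 (SE 0.28, adjusted p = 0.0073), lost in DESeq2. Tnfsf9 (4-1BB ligand) and Pvr were lower, with log2 fold changes of -2.96 and -1.27, the call of Pvr being lost in DESeq2. The costimulatory genes Cd86, Cd80 and Cd40 did not pass, with -0.23, -0.66 and -1.22.

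Of 22 cell cycle genes, 5 were higher in cDC1 by edgeR (Ccnb1, Ccnb2, Cenpf, Ube2c and Hmgb2) and none lower, also at an unadjusted p under 0.05 and in DESeq2, with a median of 0.43. DESeq2 called only Hmgb2 higher. Ccnb1, the cyclin that starts mitosis, was at 28, 34.4 and 31.5 CPM in cDC1 and 2.94, 2.23 and 10.4 CPM in cDC2, with log2 2.56 (SE 0.50, adjusted p = 0.011). Of 14 genes of the type I interferon response, Ifit1, Ifit2, Oasl2 and Xaf1 were lower and none higher by edgeR, with DESeq2 calling Ifit2 and Oasl2 lower. Of 14 genes induced by interferon-gamma, none passed in either direction by edgeR or DESeq2, with 1 higher and 2 lower at an unadjusted p under 0.05 and a median of -0.14. Psap, the precursor of lysosomal saposins, was at 4161, 5407 and 4913 CPM in cDC1 and 1603, 1589.6 and 1894 CPM in cDC2, with log2 1.54 (SE 0.11, adjusted p = 8.7e-05). Of 14 glycolysis and hypoxia genes, Pgk1 and Tpi1 were higher, and of 16 stress genes Hspa8 was higher and 5 (Jun, Junb, Ier2, Atf3 and Zfp36) were lower. The calls of Tpi1, Hspa8 and Zfp36 were lost in DESeq2, and that of Hspa8 also without the day 7 or the day 14 library.

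The second comparison asked how cDC1 differed between days 3, 7 and 14 after the T cell transfer. With 1 library a day, a gene is called higher or lower by a rule of size, a ratio of at least 1.5-fold whose counting interval excludes 1, and members of a list needed 20 UMIs over the 2 libraries. In all members, 4.81% of 7428 genes were higher at day 7 than at day 3 by this rule and 10.3% lower. In the Xcr1-positive members 3.6% of 6616 genes were higher and 6.85% lower. Of the 765 genes lower in all members, 354 were also lower in the Xcr1-positive members (46.3% of the first list and 78.1% of the second). The second set is part of the first, so much of this overlap is built in. It gave 956530 of 1462712 UMIs at day 3 and 762393 of 843354 at day 7.

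Genes induced by interferon-gamma, the cytokine that activated T cells release, were mostly lower at day 7 than at day 3. Among all members, 15 of 16 measured genes of the list were lower at day 7 than at day 3, with a median log2 ratio of -2.08. Among the Xcr1-positive members 11 of 14 were lower, with a median of -1.21. Without those of 2000 CPM or more of monocyte and macrophage markers 6 of 12 were lower, with a median of -0.68. In this smaller set, 3.74% of 5965 genes were higher and 4.96% lower at day 7 than at day 3, 3.1% of 5480 higher and 6.26% lower at day 14 than at day 7, and 2.89% of 5542 higher and 6.6% lower at day 14 than at day 3. The summed monocyte and macrophage markers, 4352, 1003 and 1288 CPM in all members, were likewise highest on day 3. The medians over all genes were -0.036, -0.00086 and 0.014 in the same 3 sets.

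Cxcl9 stood at 1700.3, 321 and 632 CPM in all members on days 3, 7 and 14, at 883, 338 and 375 CPM in the Xcr1-positive members and at 612, 368 and 386 CPM in those low in monocyte markers. The day 7 level was 5.29-fold (4.67 to 6.02) lower than the day 3 level in all members and 2.61-fold (2.27 to 3.01) lower in the Xcr1-positive members. A Cxcl9 UMI was found in 29 of 39, 16 of 30 and 15 of 24 Xcr1-positive members, beside 20.4%, 3.08% and 6.27% of T cell barcodes, in which it should be absent. Thinned to 3000 UMIs, these shares were 53.8%, 16.7% and 26.1% against 9.18%, 0.715% and 2.94% (median depths of 24859, 26413.5 and 21775.5 UMIs in the Xcr1-positive members and 12219, 10436 and 9054.5 in the T cells). On all 3 days the share was above that in T cell barcodes. These shares are given without intervals, and the part of RNA from other cells in the same barcode was not tested.

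Gbp2, a guanylate-binding protein of host defence, stood at 1324, 145 and 388 CPM in all members, 613, 135 and 133 CPM in the Xcr1-positive members and 163, 61.3 and 138 CPM in those low in monocyte markers. Its day 7 level was 4.53-fold (3.67 to 5.65) lower than that of day 3 in the Xcr1-positive members. Igtp stood at 85.7, 30.2 and 36.2 CPM in the Xcr1-positive members, 2.84-fold (1.77 to 4.73) lower at day 7 than at day 3. Irf1, a transcription factor induced by interferon-gamma, stood at 166, 87.9 and 93.4 CPM there and was 1.89-fold (1.41 to 2.56) lower. Day 3 was the highest day for each of these 3 genes, and days 7 and 14 lay close to each other in the Xcr1-positive members. At day 14, 10 of 14 genes of the list were lower than at day 3 there (8.61% of 6248 genes were), but 2 of 12 (Cxcl9 and Cd274) were without the cells high in monocyte markers, and 1 of 12 was higher than at day 7 (2.66% of 5785 genes were). In all members 5 of 13 were higher at day 14 than at day 7 (4.76% of 6443 genes were).

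The checkpoint ligand Cd274 (PD-L1) stood at 230.4, 72.3 and 75.4 CPM in all members and 116, 61.6 and 38.1 CPM in the Xcr1-positive members. In the Xcr1-positive members the day 14 level was 3.05-fold (1.88 to 5.18) lower than the day 3 level. Ciita, the master regulator of MHC class II, went the other way, with 136, 232 and 265 CPM in the Xcr1-positive members. Its day 7 level was 1.71-fold (1.35 to 2.16) that of day 3, and its day 14 level 1.95-fold (1.52 to 2.49). In cDC2, Cxcl9 stood at 675, 551 and 154 CPM, Gbp2 at 443, 167 and 187 CPM, Cd274 at 112, 132 and 72.7 CPM and Ciita at 161, 239 and 129 CPM. Levels in cDC2 are from the same libraries and share their days.

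The type I interferon response, driven by IRF7 and shown by Isg15, followed another course in the Xcr1-positive members. Of the list, 8 of 15 measured genes were lower at day 7 than at day 3 in all members (10.3% of 7428 genes were). In the Xcr1-positive members 1 of 12 was, close to the 6.85% of 6616 genes. There the lower level came at day 14, with 6 of 10 genes lower than at day 7 (5.93% of 5785 genes were). Irf7 stood at 175, 192 and 55.3 CPM in the Xcr1-positive members, and its day 14 level was 3.47-fold (2.31 to 5.36) lower than that of day 7. Isg15, a ubiquitin-like protein, stood at 133, 111 and 32.4 CPM, and its day 14 level was 3.44-fold (2.03 to 6.18) lower than that of day 7. In those low in monocyte markers Isg15 stood at 35.4, 67.1 and 34.6 CPM and Irf7 at 77.8, 177 and 56.9 CPM. In cDC2, Irf7 stood at 461, 208 and 114 CPM and Isg15 at 311, 152 and 83.1 CPM, with day 3 the highest.

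**Figure D4:**
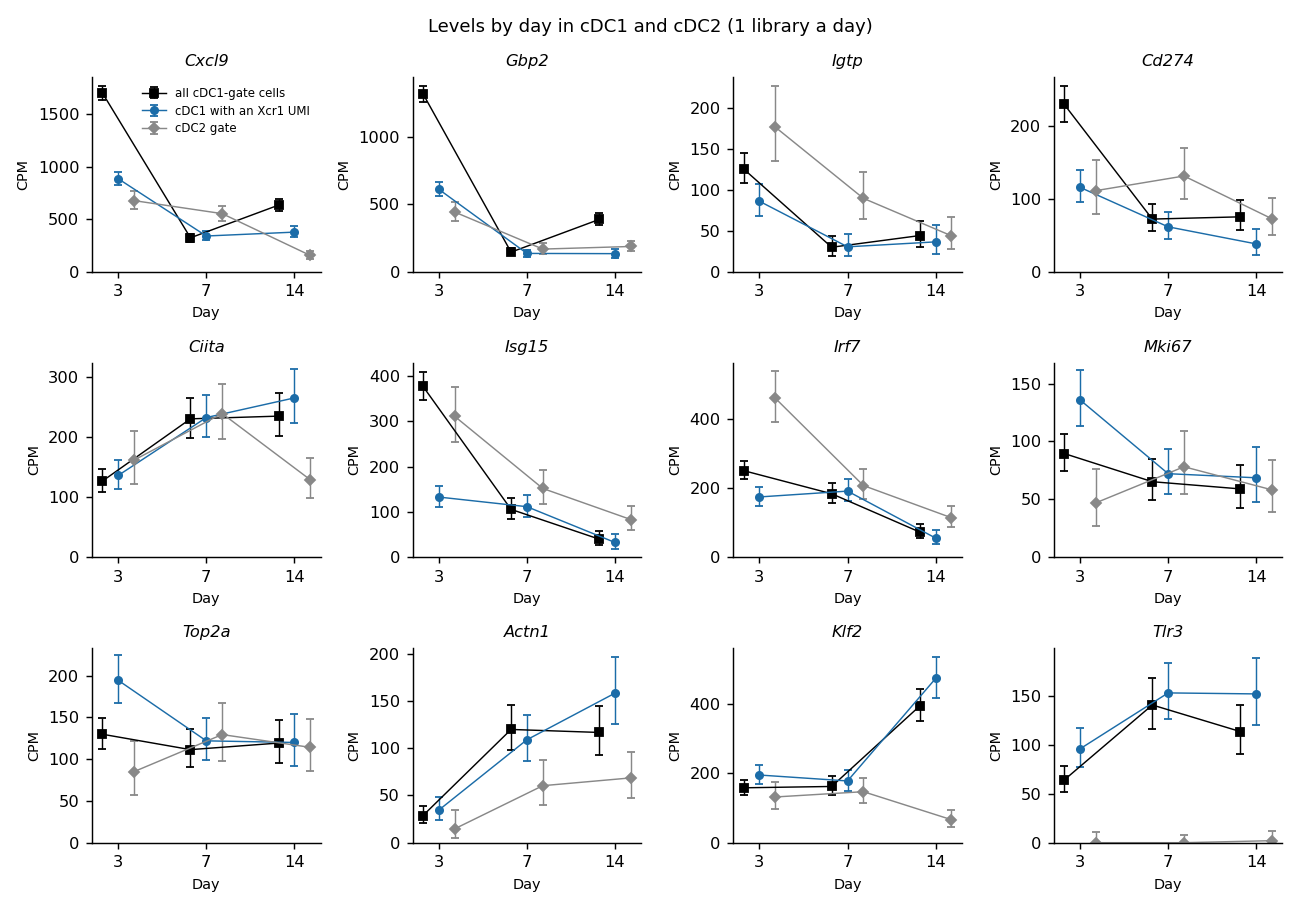
Levels (CPM) of 12 genes on days 3, 7 and 14 in all cDC1-gate cells (squares), Xcr1-positive cDC1 (circles) and cDC2 (diamonds), with exact 95% intervals for counting error and 1 library a day; lines only join the days. Cxcl9 and Gbp2 are highest at day 3 in both cDC1 sets, Isg15 and Irf7 of the Xcr1-positive cells are lowest at day 14, and Klf2 is highest at day 14 in cDC1 and lowest there in cDC2.

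Many of the listed cell cycle genes were lower at day 7 than at day 3 in the Xcr1-positive members. Of 22 measured, 12 were lower and 1 was higher at day 7 than at day 3 (6.85% and 3.6% of all genes were). In all members 2 were lower and 2 higher, close to the level over all genes (10.3% and 4.81%). In the Xcr1-positive members at day 14, 5 were lower and 1 (Ccnb2) was higher than at day 3 (8.61% and 2.94% of all genes were). Against day 7, 4 were higher and 3 lower at day 14 (2.66% and 5.93% of all genes were). Mki67, which marks cells in cycle, stood at 136, 72.1 and 68.6 CPM in the Xcr1-positive members and 89.6, 65.2 and 59 CPM in all members. The day 7 level was 1.88-fold (1.36 to 2.63) lower than the day 3 level in the Xcr1-positive members. Top2a, a topoisomerase of dividing cells, stood at 194, 122 and 120.0 CPM and was 1.59-fold (1.24 to 2.07) lower. The share of Xcr1-positive members with at least 2 UMIs of Mki67 and Top2a together was 14 of 39 (35.9%, 21.2 to 52.8), 10 of 30 (33.3%, 17.3 to 52.8) and 5 of 24 (20.8%, 7.13 to 42.2). These intervals overlap. Thinned to 3000 UMIs the shares were 17.9%, 3.33% and 13.0%. In monocytes and macrophages the shares were 2.91%, 1.45% and 3.77% unthinned and 0.757%, 0.292% and 0.759% thinned, at median depths of 10666, 11051 and 12429.5 UMIs. In cDC2 the unthinned share was 2 of 21, 2 of 27 and 4 of 28. Without the cells high in monocyte markers, 14 of 22 cell cycle genes of the Xcr1-positive members were lower at day 7 than at day 3. In that set 1 was higher, and over all genes 4.96% were lower and 3.74% higher.

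None of the 10 identity genes outside the gate was lower by the size rule between any 2 days, in all members or in the Xcr1-positive members. Over all genes, 10.3%, 5.42% and 9.68% were lower in all members and 6.85%, 5.93% and 8.61% in the Xcr1-positive members, for day 7 over 3, day 14 over 7 and day 14 over 3. With shares this low, none among 10 genes is close to the level over all genes. At day 7 against day 3, 5 were higher in all members (Wdfy4, Tlr3, Itgae, Snx22 and Gcsam), 2 in the Xcr1-positive members and none in those low in monocyte markers. Over all genes, 4.81%, 3.6% and 3.74% were higher in the same order of sets. Tlr3 stood at 96.2, 153 and 152 CPM, with day 7 at 1.6-fold (1.2 to 2.12) day 3. Itgae stood at 142, 215 and 204 CPM, with day 7 at 1.51-fold (1.2 to 1.91) day 3. At day 14 against day 3, Tlr3 was higher in the Xcr1-positive members (2.94% of 6248 genes were), and Tlr3 and Itgae in all members (3.95% of 7385 genes were). Wdfy4 differed less, with 609, 749 and 661 CPM, and Id2 stood at 881, 1313 and 1206 CPM, with day 7 at 1.49-fold (1.36 to 1.63) day 3, just under the rule. Of 20 MHC class I and cross-presentation genes, none was higher and 1 (Cybb, a subunit of the phagocyte oxidase) was lower at day 7 than at day 3 in the Xcr1-positive members.

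Inflammatory chemokines and lysosomal genes were lower at day 7 than at day 3 in both sets, together with the monocyte and macrophage markers. Of 10 measured chemokines, 8 were lower in the Xcr1-positive members (Cxcl9, Cxcl10, Ccl2, Ccl3, Ccl4, Ccl6, Ccl9 and Cxcl2), and 4 of 9 without the cells high in those markers. Of 17 genes of lysosomes and lipid handling, 11 were lower in the Xcr1-positive members, among them Ctsb, Ctsd, Apoe and Lpl, and 1 of 14 (Ctsl) without such cells. Of 14 genes of glycolysis and hypoxia, 9 were lower in all members, 4 in the Xcr1-positive members and 3 of 13 without such cells. Over all genes, 10.3%, 6.85% and 4.96% were lower in the same order of sets. The 1 of 14 lysosomal genes is close to the last of these shares.

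Outside the lists, Actn1 and Klf2 were among the 6 genes with the largest differences in the Xcr1-positive members. Actn1, an actin cross-linker, stood at 34.5, 109 and 158 CPM. Its level was 3.16-fold (2.08 to 4.88) that of day 3 at day 7 and 4.58-fold (3.03 to 7.09) at day 14. Klf2, a transcription factor that shapes lymphocyte and myeloid trafficking, stood at 195, 178 and 474 CPM in the Xcr1-positive members and 132, 147 and 66.4 CPM in cDC2. Its day 14 level in the Xcr1-positive members was 2.66-fold (2.15 to 3.3) that of day 7. Tsc22d3 (GILZ), a target of the glucocorticoid receptor, stood at 30.3, 45.9 and 107 CPM, and Adgre5 (CD97), an adhesion receptor, at 38.7, 83.9 and 131 CPM. All 4 were highest on day 14 in the Xcr1-positive members.

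Some of the largest differences in the other direction lay mostly in 1 cell. Lpl, a lipase of foamy macrophages, stood at 371, 0 and 5.72 CPM in the Xcr1-positive members, and 1 cell gave 210 of its 355 UMIs at day 3. The heat shock gene Hspa1b stood at 530.0, 1.31 and 143 CPM, with 412 of 507 day 3 UMIs in 1 cell, and Arg1 at 318, 3.93 and 30.5 CPM, with 214 of 304 in 1 cell. C1qb, a complement gene of macrophages, stood at 254, 2.62 and 5.72 CPM. Ccl17, a chemokine of mature dendritic cells, stood at 2.05, 583 and 97.4 CPM in all members but at 1.98, 6028 and 249.7 CPM in the Xcr1-zero and 2.09, 5.25 and 38.1 CPM in the Xcr1-positive members. The immediate early genes Egr1 and Egr3, which respond to stimulation and to tissue digestion, stood at 115, 201 and 68.6 and 186, 285 and 105 CPM in the Xcr1-positive members, lowest at day 14. Other stress genes went the other way. Of 16 in the list, 5 were higher there at day 14 than at day 7 (Jun, Fos, Dusp1, Hspa1a and Hspa1b) and 3 lower (Egr1, Ier2 and Nr4a1). Over all genes 2.66% were higher and 5.93% lower.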

How the data were processed

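Single-cell RNA of CD45+ tumour cells was measured with 10x Genomics 3′ v3.1 Dual Index kits in 3 libraries, per the labels' protocols. The authors deposited UMI counts per gene and barcode, made with Cell Ranger 4.0.0 and genome build mm10 per the submitters' processing notes. The counts came as whole numbers for 32285 genes in 3656, 3038 and 3549 barcodes, already limited to at least 500 UMIs. Barcodes of at least 1500 UMIs and under 10% mitochondrial UMIs summed to 32233978, 29122945 and 35034029 UMIs on days 3, 7 and 14. Scrublet doublet scores were computed and used only in an alternative, and no correction for free RNA was applied.

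The members, the gene lists and the rule for named genes were chosen with earlier results of these data known. Named genes are the 10 highest and 10 lowest of cDC1 against cDC2 and the 6 highest and lowest of each day comparison with at least 60 UMIs, up to 4 of each list, and 29 set genes. Further members named beside a count of calls were chosen after their values were seen. Counts were summed per library and gate. cDC1 and cDC2 were tested with edgeR 4.0.16 in R 4.3.3 (quasi-likelihood, TMM scaling, filterByExpr, library as block), with DESeq2 1.42.0 as an alternative. The block pairs both cell types of 1 library. Ratios between days are of CPM with exact conditional binomial intervals, and shares have exact Clopper-Pearson intervals (scipy 1.17.1). A gene at 0 was set to a floor of 3 counts. The edgeR step was tested first on simulated data with an assumed spread between libraries. It recovered 2 of 49 genes raised 2-fold and 0 of 35 lowered 2-fold. Of 4-fold changes it recovered 35 of 50 raised and 22 of 35 lowered genes. Genes that did not pass may therefore still differ by about 2-fold. Alternatives covered scaling, filters, depth, the gates, doublet scores, shared barcodes and leaving out each library. Some genes of the lists are counted but not reported by name here.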

Additional observations from a re-analysis of the deposited data

Results flagged for a closer look

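These genes passed the 1.5-fold size rule between 2 days in opposite directions in cDC1 and cDC2. With 1 library a day, the difference between the cell types was not tested. Day 7 over day 3, C1qb had a log2 ratio of -7.49 in cDC1 and 3.75 in cDC2, C1qc had -5.73 and 3.997, and Arg1 had -5.22 and 3.64. These 3 genes mark macrophages, and the monocyte and macrophage markers summed to 4352, 1003 and 1288 CPM in cDC1 and to 3329, 1429 and 2035 CPM in cDC2 on days 3, 7 and 14. Their part in these ratios was not tested. Among Xcr1-positive members low in monocyte markers, the log2 ratio of Arg1 at day 7 over day 3 was 1.63, with the sign seen in cDC2. Day 14 over day 3, C1qb had -3.28 in cDC1 and 3.59 in cDC2, and C1qa had -3.31 and 3.54.

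Day 14 over day 7, Hspa1b had a log2 ratio of 6.90 in cDC1 and -2.83 in cDC2, and Hspa1a had 5.82 and -1.37. Ccl17 had -2.58 in cDC1 and 3.34 in cDC2, with the sign in cDC1 turned among Xcr1-positive members (2.86). Iigp1, an interferon-induced GTPase, had 2.26 in cDC1 and -2.15 in cDC2, and Cxcl9 had 0.98 and -1.84. Among Xcr1-positive members Iigp1 also passed the rule as higher, but Cxcl9 did not. Without shared barcodes the log2 ratio of Cxcl9 in cDC1 was -0.083. Klf2 had 1.28 in cDC1 and -1.15 in cDC2 for day 14 over day 7, and 1.32 and -0.99 for day 14 over day 3. Adgre5 had 1.23 in cDC1 and -0.82 in cDC2 for day 14 over day 3, and Ptgs2, the inducible cyclooxygenase, had -2.14 and 0.61.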

How the results depend on the processing

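Of 32 alternative counts of genes that differed between cDC1 and cDC2, 25 stayed within 1.5 times the 294 higher and 365 lower genes. Without the replicate block 243 were higher and 276 lower. DESeq2 gave 141 and 193, no filter on low counts gave 509 higher, and the gate with 1 UMI of each of Xcr1 and Clec9a gave 577 lower. Without shared barcodes 214 were lower, and 619 were lower for Xcr1-positive members low in monocyte markers. Leaving out each library gave 205 to 221 higher and 214 to 288 lower, the fewest lower without day 7. Of single genes in this contrast, Cd274 turned to a log2 fold change of -0.74 with 1 UMI of each gate gene and -0.86 in Xcr1-positive members low in monocyte markers, Cxcl2 to -0.48 in the Xcr1-positive members and -3.86 in those low in monocyte markers, and Gbp2 to -1.08 in the last set.

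The log2 ratio of the share at day 7 over day 3 was -1.11 and became -0.19 with 1 UMI of each gate gene, -2.01 without shared barcodes, -0.30 in Xcr1-positive members, 0.027 in those low in monocyte markers and 0.057 after thinning. For day 14 over day 7 it became 0.98 without shared barcodes, and for day 14 over day 3 -0.46 in Xcr1-positive members low in monocyte markers and 0.084 after thinning. Thinning left 18, 18 and 20 members. The 2 sets defined by an Xcr1 UMI were chosen after seeing the data.

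List medians below use the genes measured in all members. For day 7 over day 3, the cell cycle median became -1.23 without shared barcodes, -0.77 with 1 UMI of each gate gene, -0.72 in Xcr1-positive members and -1.01 in those low in monocyte markers. The type I interferon median became -1.57 without shared barcodes, -1.58 without cycling cells, 0.11 with 1 UMI of each gate gene, 0.0053 in Xcr1-positive members and 0.51 in those low in monocyte markers. The interferon-gamma median became -1.03, -1.31 and -0.69 in these last 3 sets, and the lysosome median 0.080 in the last. For day 14 over day 7, the cell cycle median became 1.61 without shared barcodes and the type I median -1.24 with 1 UMI of each gate gene and in Xcr1-positive members. For day 14 over day 3, the type I median became -0.48, the interferon-gamma median -0.65 and the lysosome median 0.0063 in Xcr1-positive members low in monocyte markers, and the interferon-gamma median -2.19 without cycling cells.

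Single genes turned sign between days as follows. For day 7 over day 3, Ifitm1 became 1.09 without barcodes with markers of other lineages, 1.60 with 1 UMI of each gate gene, 1.59 in Xcr1-positive members, 1.82 in those low in monocyte markers and 0.50 without its top cell. Isg15 became 0.11 with 1 UMI of each gate gene and 0.93 in members low in monocyte markers, Irf7 0.56, 0.13 in Xcr1-positive members and 1.18 in those low in monocyte markers, in which Arg1 became 1.63 and Cxcl10 0.59. For day 14 over day 7, Ccl17 became 1.27 without shared barcodes, 1.75 without other-lineage barcodes, 2.86 with 1 UMI of each gate gene and in Xcr1-positive members, 1.65 in those low in monocyte markers and 1.91 without its top cell, and Cxcl9 became -0.083 without shared barcodes. The cause was not tested.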
